A study of Mus musculus with 47 samples.

Results

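The comparison set 3 arrays of cells given 100 cGy of X-rays against 3 arrays of cells given 10 cGy, all collected 6 h after exposure and all carrying a short hairpin RNA (shRNA) against AnxA2. These 6 arrays were set by their labels (line, dose and time) out of 47 in the series, not by a measured value. The comparison itself was chosen with earlier results of these data known. The cells were JB6, a mouse cell line from the epidermis known for work on tumour promoters, which the labels call progenitor cells. The shRNA was introduced by retrovirus and kept by puromycin selection, so every array of the comparison shares the knockdown, the virus and the drug. A second line carried the retroviral vector only ("Ps vector") and was selected in the same way. Cells grew in medium with 5% fetal bovine serum and were exposed in an X-RAD 320 cabinet at 6.5 cGy/min. The labels name no clone and do not say how many shRNA sequences were used. They number the replicates but do not say that these were separate cultures, so a p value rests only on how far these samples spread, and that spread may be technical. No untreated 6 h group is among the samples used here. A value at 6 h can therefore be read between the doses, and the direction against untreated cells of the same time was not tested.

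Ionizing radiation breaks DNA, and the kinases that sense the breaks stabilise the transcription factor p53. p53 switches on genes that hold the cell cycle (Cdkn1a), genes that take part in cell death (Pidd1) and genes that turn p53 itself down again (Mdm2, Ccng1, Ppm1d). Cells held before mitosis also change the RNA of mitotic genes, whose transcription peaks late in the cell cycle. Many mitotic promoters carry a CCAAT box and a cell cycle genes homology region (CHR). The CHR is bound by the DREAM complex, which keeps these genes off early in the cycle.

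At 6 h, no gene was called between 100 and 10 cGy in the shRNA cells. limma with Benjamini-Hochberg adjustment over 8675 tested genes called 0 genes higher and 0 lower (0.00% of the genes), and the smallest adjusted p was 0.438. At an unadjusted p under 0.05 there were 299 genes (3.45%), 150 of them higher at 100 cGy and 149 lower. The 2 genes with the smallest p were Ckap2, which encodes a spindle-associated protein, and Mdm2, the ubiquitin ligase that degrades p53. Both were higher at 100 cGy on every array. Members of the mitotic list and of the list of p53 targets of arrest and feedback lay mostly above 0, by small amounts, and no member of any list passed the adjusted test.

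Levels are given as log2 signal, where a difference of 1 is a doubling; every difference is the 100 cGy mean minus the 10 cGy mean. The median standard error of a difference was 0.125, with quartiles of 0.103 and 0.149. At that median, a gene would have needed a difference of 0.66, or 1.58-fold, to be the first one called. The 95% interval of the difference lay within 2-fold in both directions for 8637 genes (99.6%) and within 1.5-fold for 8202 genes (94.5%). A change of 2-fold or more between the doses thus lies outside the interval of nearly all tested genes. Genes with a smaller standard error needed a smaller difference.

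The Anxa2 probe set read 11.09, 11.09 and 11.12 at 10 cGy and 11.06, 11.21 and 11.05 at 100 cGy. The vector arrays of the same time read between 12.46 and 12.62, above every shRNA array. The mean of the shRNA arrays minus that of the vector arrays was -1.45, or 63.5% less. The labels state a loss of more than 95% of AnxA2 RNA. The value here is the array signal of a single probe set on irradiated 6 h arrays, so it does not test the stated loss. The dose difference of Anxa2 in the shRNA cells was 0.01 ± 0.08 (SE, 3 arrays a dose). Of 22 fibroblast and mesenchymal markers, 18 were above the low-signal limit of 4.35 on the mean of the 6 arrays. Vimentin (Vim) was at 13.28 and Col1a2 at 12.90. Thy1 (3.80), Cdh11 (3.47), Lum (2.98) and Fap (2.67) were under the limit. Of 35 epithelial and keratinocyte markers, 14 were above it. The E-cadherin gene Cdh1 read 2.44 and the epidermal factor gene Trp63 read 3.30, both under the limit, and Krt14 read 6.08. The brightest of this list were Slurp1 at 9.28 and Itga6 at 8.53. Leukocyte markers were above the limit for 8 of 23 genes, with Ptprc at 2.71 and the brightest, Cd14, at 8.24. The summed epithelial list spanned 10.94 to 11.07 at 10 cGy, a range that held all 3 arrays at 100 cGy, and the summed mesenchymal list spanned 15.23 to 15.30 and 15.30 to 15.31.

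The 10 cGy array of replicate 1 stood apart from the rest. Its Gapdh control read 1.06 higher at the 3′ end than at the 5′ end, the highest of the 47 arrays, where the other 46 spanned -0.09 to 0.594 and the other 5 arrays of the comparison spanned -0.06 to 0.163. The Actb control gave 1.01 on that array and 0.188 to 0.619 on the others. On it, 105 genes lay more than 1 from the mean of the other 10 cGy arrays, 22 of them above and 83 below. Its 2 group mates had 10 and 13 such genes, and each 100 cGy array had 0. The caveolae gene Cavin1 read 10.34 on this array against 6.17 and 6.61, and the long noncoding RNA Tug1 read 5.10 against 9.17 and 8.84. These are the brightest probe sets of both genes. Every value below is therefore given with all arrays and, where it is named as such, without this one.

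**Figure D1:**
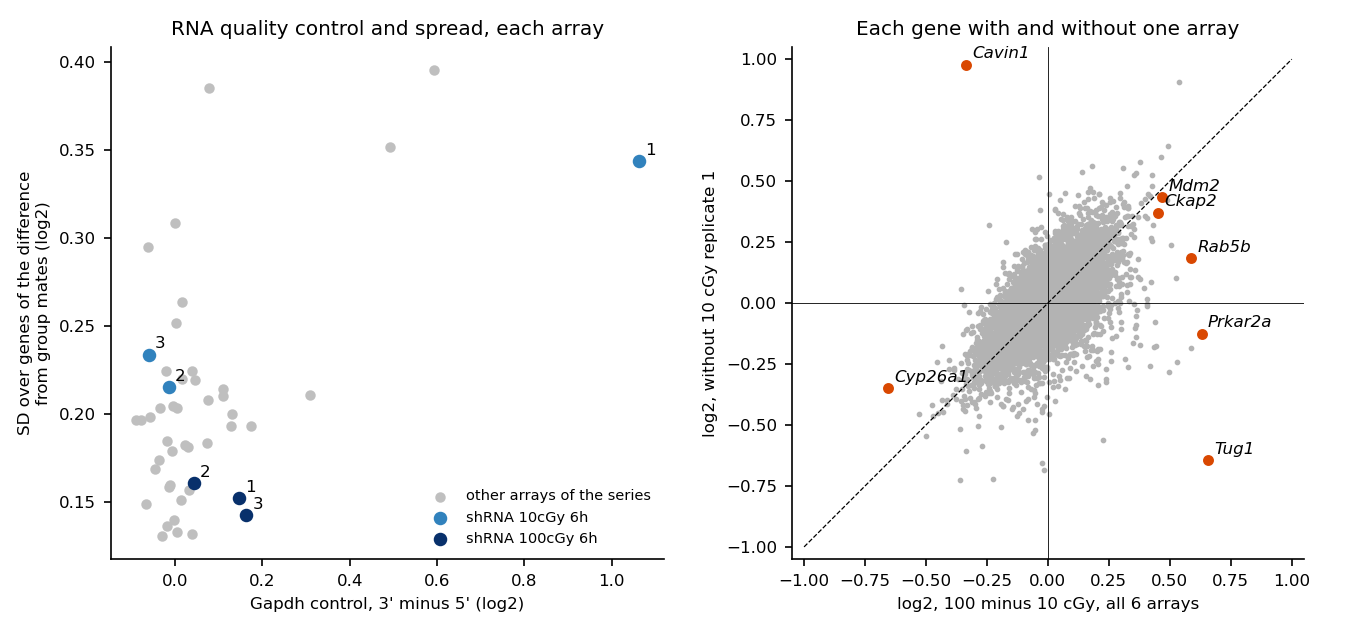
Left, each of the 47 arrays by the 3′ minus 5′ difference of the Gapdh control (log2) and by the SD over genes of its difference from its group mates (log2), with the 6 arrays of the comparison coloured and numbered by replicate. Right, each tested gene by its difference between 100 and 10 cGy with all 6 arrays (horizontal axis, log2) and without the 10 cGy array of replicate 1 (vertical axis, log2), with the dashed line marking equal values. The 10 cGy array of replicate 1 lies at 1.06 on the left, and Tug1 and Cavin1 lie far from the dashed line on the right.

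Leaving this array out gave 0 called genes as well, with a smallest adjusted p of 0.999 in limma. At an unadjusted p under 0.05 there were then 292 genes (3.37%). The share of genes with a difference above 0 was 46.9% with all arrays and 52.9% without it. 4 genes lay past 1.5-fold with all arrays and 11 without that array, and 0 past 2-fold in either setting. Of the 4, Rab5b and Cyp26a1 were smaller without it and Tug1 and Prkar2a had the other sign. Tug1 was at 0.65 with it and -0.64 without it, and its other probe sets gave 0.28 and 0.03 with all arrays. Prkar2a, a regulatory subunit of protein kinase A, was at 0.63 and -0.13. The small GTPase gene Rab5b was at 0.59 and 0.18. Cyp26a1, which encodes an enzyme that breaks down retinoic acid, read 5.63, 4.68 and 4.73 at 10 cGy and 4.58, 3.95 and 4.56 at 100 cGy, all low signals. Its groups did not overlap, and its difference was -0.65, or -0.35 without that array.

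Mdm2 read 9.59, 9.73 and 9.64 at 10 cGy and 10.15, 10.07 and 10.15 at 100 cGy. All 3 arrays of the higher dose lay above all 3 of the lower dose, and the gap between the groups was wider than the spread within either. The difference was 0.47 ± 0.11 (SE, 3 arrays a dose), or 1.38-fold, with a 95% interval of 0.25 to 0.69. The unadjusted p was 1.01e-04 and the adjusted p was 0.438 in limma, so Mdm2 was not called. It was called in 3 of 17 alternatives, namely with only the arrays of the line, with array weights and with the replicate number as a block, and Ckap2 was called in the last 2 of these. Without the 10 cGy array of replicate 1 the difference was 0.44, and the second Mdm2 probe set gave 0.42 with all arrays. Groups of 3 without overlap were not rare, since 362 genes (4.17%) lay wholly higher at 100 cGy and 447 (5.15%) wholly lower, 809 in all (9.33%).

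In the same line at 2 h, Mdm2 was at 9.84 ± 0.08 (SD, n = 3) untreated, 9.81 ± 0.07 at 10 cGy and 10.47 ± 0.06 at 100 cGy. At 6 h it was at 9.65 ± 0.07 and 10.12 ± 0.04 at the 2 doses. At 24 h it was at 9.37 untreated, 9.29 ± 0.06 at 10 cGy and 9.45 ± 0.02 at 100 cGy. The dose difference was called at 2 h (0.65), where limma called 2 genes (0.0231%), Mdm2 and the thiamine transporter gene Slc19a2. That count was 0 without the 100 cGy 2 h array of replicate 1 or the 10 cGy 2 h array of replicate 2, and 1 without the 10 cGy 2 h array of replicate 3. The Mdm2 difference was 0.47 at 6 h and 0.15 at 24 h, called at neither time. The 2 h and 6 h differences of Mdm2 were not distinguished, with 6 h minus 2 h at -0.19 and a 95% interval of -0.49 to 0.12. limma called 0 genes (0.00%) for 6 h against 2 h in the dose difference, where 192 had an unadjusted p under 0.05.

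Ckap2 read 9.45, 9.66 and 9.74 at 10 cGy and 10.08, 10.10 and 10.03 at 100 cGy. The groups did not overlap, and the 10 cGy array of replicate 1 was the lowest of the 6. The difference was 0.45 ± 0.10 (SE, 3 arrays a dose), with a 95% interval of 0.24 to 0.66 and an adjusted p of 0.438 in limma. Without that array it was 0.37. The level at 100 cGy, 10.07 ± 0.04 (SD, n = 3), was near the untreated levels of 10.17 ± 0.02 at 2 h and 10.06 ± 0.11 at 24 h. The level at 10 cGy, 9.62 ± 0.15, was the lowest of the 8 groups of this line. At 2 h the 10 and 100 cGy levels were 10.07 ± 0.11 and 10.15 ± 0.09, and at 24 h they were 10.03 ± 0.06 and 10.12 ± 0.03.

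Cdkn1a encodes p21, the inhibitor of cyclin-dependent kinases. It read 10.72, 10.50 and 10.56 at 10 cGy and 10.68, 10.70 and 10.75 at 100 cGy. The groups overlapped, since the 10 cGy array of replicate 1 lay above 2 of the 100 cGy arrays. The difference was 0.12 ± 0.11 (SE, 3 arrays a dose), with a 95% interval of -0.11 to 0.34, and 0.18 without that array. The dimmer Cdkn1a probe set gave -0.30. In the vector line the difference was 0.29 ± 0.11, and the difference between the lines was -0.17 with a 95% interval of -0.49 to 0.15, not called.

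Ccng1 encodes cyclin G1, a p53 target that recruits a phosphatase to Mdm2. It read 11.08, 10.89 and 10.82 at 10 cGy and 11.15, 11.12 and 11.22 at 100 cGy. The groups did not overlap, though the 10 cGy array of replicate 1 came close to the higher dose. The difference was 0.24 ± 0.11 (SE, 3 arrays a dose), and 0.31 without that array. Its other 2 probe sets gave 0.12 and 0.54. Ppm1d, the phosphatase that dephosphorylates p53 and Atm, read 5.92, 5.93 and 6.15 against 6.20, 6.28 and 6.39. All 3 arrays at 100 cGy were higher, by 0.29 ± 0.11 between the means. Slc19a2 read 8.31, 8.70 and 8.52 against 8.75 on each of the 100 cGy arrays, a difference of 0.24 ± 0.10, or 0.14 without replicate 1.

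Over the list of p53 targets of arrest and feedback, 28 of 32 members were tested and 0 were called. 4 had an unadjusted p under 0.05, all higher at 100 cGy (background 1.73%), namely Mdm2, Ppm1d, Slc19a2 and Ccng1. The difference was above 0 for 21 of the 28, against 46.9% of all tested genes. The median was 0.12, against -0.01 over all tested genes. Without the 10 cGy array of replicate 1 the median was 0.13, against 0.01 over all genes. Plk1, a mitotic kinase that is also in the mitotic list, was at 0.20 (0.12 without replicate 1). Gtse1, a p53-binding protein of the G2 phase, was at 0.31 (0.24). The list mean spanned 7.52 to 7.56 on the 10 cGy arrays and 7.64 to 7.67 on the 100 cGy arrays. In the list of p53-linked apoptosis genes, 13 of 20 members were tested, with a median of 0.08, or 0.02 without replicate 1. Pidd1, an adaptor that activates a caspase, read 5.82, 5.99 and 6.08 against 6.25, 6.25 and 6.24, a difference of 0.28 ± 0.09. Siva1, which encodes a death receptor binding protein, was at -0.23, or -0.14 without replicate 1.

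**Figure D2:**
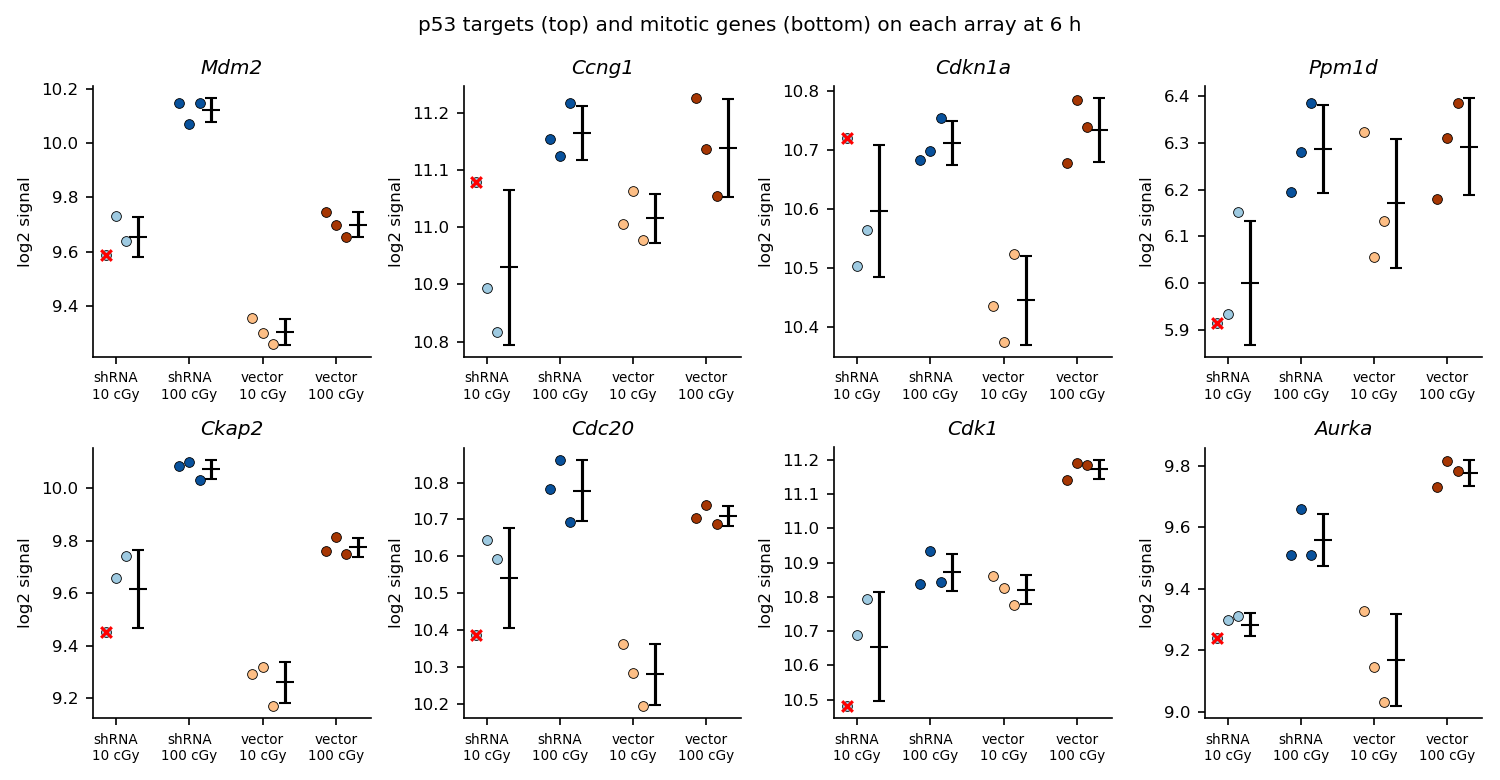
Log2 signal (vertical axes, which do not start at 0) of 8 genes on each 6 h array of shRNA and vector cells given 10 or 100 cGy. Points are arrays, the dash and bar beside them are the mean and SD of 3 arrays, and the red cross marks the shRNA 10 cGy array of replicate 1. Mdm2 and Ckap2 do not overlap between the doses in either line, and Cdkn1a overlaps in the shRNA cells.

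The mitotic list held 46 genes, 44 of them tested and 0 called in the shRNA cells. The difference was above 0 for 41 of the 44, against 46.9% of all tested genes, and the median was 0.14. Without the 10 cGy array of replicate 1 it was above 0 for 40, against 52.9%, with a median of 0.13. At an unadjusted p under 0.05, 10 members were higher (background 1.73%) and 0 lower (background 1.72%). The arrays did not overlap for 13 members, all higher at 100 cGy (background 4.17%). The list mean spanned 9.07 to 9.13 on the 10 cGy arrays and 9.22 to 9.26 on the 100 cGy arrays. The members are transcribed together in the cell cycle and are not independent of each other.

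Many members of this list share a promoter element that had no part in their choice. The windows of Cdc20, Cdk1 and Top2a are shown because these genes are among the 10, have 1 window and carry it before the gene start. Of the others, Prc1 carries it but has 2 windows. Cenpf, Aurka and Racgap1 carry it only after the gene start, and the Mad2l1 window does not hold it. Kif20a and Ccna2 have no window in the set used and could not be searched. The windows run from 250 bases before to 50 bases after the RefSeq gene start, 300 bases in GRCm38.p6. Capitals mark each exact match to TTTGAA, the core letters of the CHR, on either strand. A match on the other strand reads TTCAAA, as in the second match of Top2a.
Cdc20, chr4:118437294-118437593, minus strand: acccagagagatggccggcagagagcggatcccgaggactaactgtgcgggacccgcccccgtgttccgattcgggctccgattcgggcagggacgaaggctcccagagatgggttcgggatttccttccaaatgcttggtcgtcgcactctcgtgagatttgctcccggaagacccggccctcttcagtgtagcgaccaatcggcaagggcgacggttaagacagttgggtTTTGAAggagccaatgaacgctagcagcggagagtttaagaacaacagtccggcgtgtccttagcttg
Cdk1, chr10:69352863-69353162, minus strand: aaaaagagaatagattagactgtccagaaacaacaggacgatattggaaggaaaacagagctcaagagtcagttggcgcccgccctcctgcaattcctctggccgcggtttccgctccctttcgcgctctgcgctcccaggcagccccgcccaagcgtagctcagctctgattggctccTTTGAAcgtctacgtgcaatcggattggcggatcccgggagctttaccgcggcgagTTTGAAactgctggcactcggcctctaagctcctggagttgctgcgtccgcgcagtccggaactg
Top2a, chr11:99024140-99024439, minus strand: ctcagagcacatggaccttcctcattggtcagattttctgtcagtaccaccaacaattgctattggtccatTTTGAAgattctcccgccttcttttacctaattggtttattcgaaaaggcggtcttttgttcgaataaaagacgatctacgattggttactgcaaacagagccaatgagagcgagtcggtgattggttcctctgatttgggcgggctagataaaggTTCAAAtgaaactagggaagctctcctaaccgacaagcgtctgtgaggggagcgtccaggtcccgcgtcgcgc
TTTGAA was searched on both strands. It was in a window of 27 of the 37 tested members that have one (73.0%), against 5466 of 27025 genes (20.2%). CCAAT, also on both strands, was in a window of 30 of the 37 (81.1%), against 41.1% of all genes. Among the tested DNA replication genes, TTTGAA was in a window of 4 of 38 (10.5%) and CCAAT of 22 (57.9%). Among the p53 targets of arrest and feedback, TTTGAA was in a window of 2 of 21 (9.52%) and CCAAT of 15 (71.4%). Cdk1 holds 2 matches, the first starting 71 bases and the second 15 bases before the gene start, and the match in Cdc20 starts 18 bases before it. The Ckap2 window also holds TTTGAA, and the Mdm2 window does not. A match describes these letters in the window and was not tested as a binding site.

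Cdc20, which activates the ubiquitin ligase that ends metaphase, read 10.39, 10.65 and 10.59 at 10 cGy and 10.78, 10.86 and 10.69 at 100 cGy. All 100 cGy arrays were the higher ones, the lowest by a narrow margin. The difference was 0.24 ± 0.09 (SE, 3 arrays a dose), or 0.16 without replicate 1, and its other 2 probe sets gave 0.01 and 0.10. Cdk1, the kinase that drives entry into mitosis, read 10.48, 10.69 and 10.79 against 10.84, 10.93 and 10.84. The 10 cGy array of replicate 1 was again the lowest. The difference was 0.22 ± 0.07, or 0.13 without it. Top2a, the topoisomerase that untangles chromosomes, was at 0.21, or 0.25 without it.

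Aurka, a spindle pole kinase, read 9.24, 9.30 and 9.31 at 10 cGy and 9.51, 9.66 and 9.51 at 100 cGy. The groups were apart by more than the spread of the 10 cGy arrays, with a difference of 0.27 ± 0.10, or 0.25 without replicate 1. Cenpf, a kinetochore protein, read 8.43, 8.24 and 8.11 against 8.54, 8.54 and 8.52. Here the 10 cGy array of replicate 1 was the highest of its group, and the difference was 0.27 with it and 0.36 without it. The kinesin gene Kif20a was at 0.31 (0.21 without replicate 1), and Prc1, which bundles microtubules at the spindle midzone, was at 0.34 (0.28). Each of these 4 genes had an adjusted p of 0.999 in limma.

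At 2 h in the shRNA cells the mitotic list median was 0.01 and at 24 h it was 0.00. Aurka was at 9.28 ± 0.04 (SD, n = 3) at 10 cGy and 9.56 ± 0.09 at 100 cGy at 6 h, at 9.41 ± 0.09 and 9.31 ± 0.12 at 2 h, and at 9.20 ± 0.05 and 9.06 ± 0.11 at 24 h. The 6 h minus 2 h value of its dose difference was 0.37, with a 95% interval of 0.09 to 0.65 and an adjusted p of 0.997 in limma. Cdk1 at 10 cGy and 6 h (10.65 ± 0.16) was lower than in untreated cells at 2 h (11.15 ± 0.04) and 24 h (10.88 ± 0.07). Dose and time both differ there. Without an untreated 6 h group the share of time and of dose in this cannot be told apart.

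The vector line gives the same dose comparison at the same time on 6 other arrays. There limma called 8 genes (0.0922%). 5 rose, namely Aurka (0.61), Cenpf (0.54), Ckap2 (0.51), Cdc20 (0.43) and Cdk1 (0.35). 3 fell, namely Ung (-0.95), a glycosylase that removes uracil from DNA, Ccne2 (-0.77), a cyclin of the start of S phase, and Chaf1b (-0.50), a chaperone subunit that places histones on new DNA. Without any 1 of the 6 vector arrays the count was 3 or 4, so it rests on each of them. In the shRNA cells all 8 had the same sign as in vector cells and a smaller size. Of the 8, 6 had an unadjusted p under 0.05 there (background 3.45%). Chaf1b (-0.02) and Ccne2 (-0.07) lay near 0 in the shRNA cells. Without the shRNA 10 cGy array of replicate 2 both had the other sign (0.042 and 0.063). The 8 were picked by their vector values, so a smaller size on other arrays can follow from that choice alone. The line differences given next hold the same vector values and can lie too far from 0 for that reason.

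Ung read 6.44, 6.25 and 6.30 at 10 cGy and 5.80, 6.12 and 5.96 at 100 cGy in the shRNA cells. All 100 cGy arrays were lower, with a difference of -0.37 ± 0.16 (SE, 3 arrays a dose). In vector cells it read 7.06, 7.20 and 7.05 against 6.12, 6.14 and 6.21. The difference between the lines was 0.58, with a 95% interval of 0.12 to 1.04. Chaf1b read 7.60, 7.82 and 7.65 against 7.69, 7.69 and 7.63 in the shRNA cells, so its groups overlapped at a difference of -0.02, and the line difference was 0.48 with an interval of 0.24 to 0.71. Ccne2 was at -0.07 with overlapping groups (-0.25 without replicate 1), and its line difference was 0.70, with an interval of 0.22 to 1.17. Aurka had a line difference of -0.33, with an interval of -0.61 to -0.06, and Ckap2 one of -0.06, with an interval of -0.36 to 0.24.

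None of these line differences was called. limma called 0 genes (0.00%) for the dose difference between the lines, with a smallest adjusted p of 0.946 and 346 genes at an unadjusted p under 0.05. The adjusted p of the 8 genes ran from 0.946 to 0.980. So the 8 genes were called in 1 line and not in the other, and a difference between the lines in any of them was not shown. The mitotic list median was 0.22 in vector cells, where 41 of 44 members lay above 0 (51.0% of all genes). 4 members were called higher, against 5 of all 8675 genes. 22 members had an unadjusted p under 0.05 and were higher (background 1.95%). Across the 8675 genes the differences of the 2 lines had Pearson's r of -0.03, and -0.25 without the shRNA 10 cGy array of replicate 1. Genes are not independent replicates, and these r values describe the tables only.

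**Figure D3:**
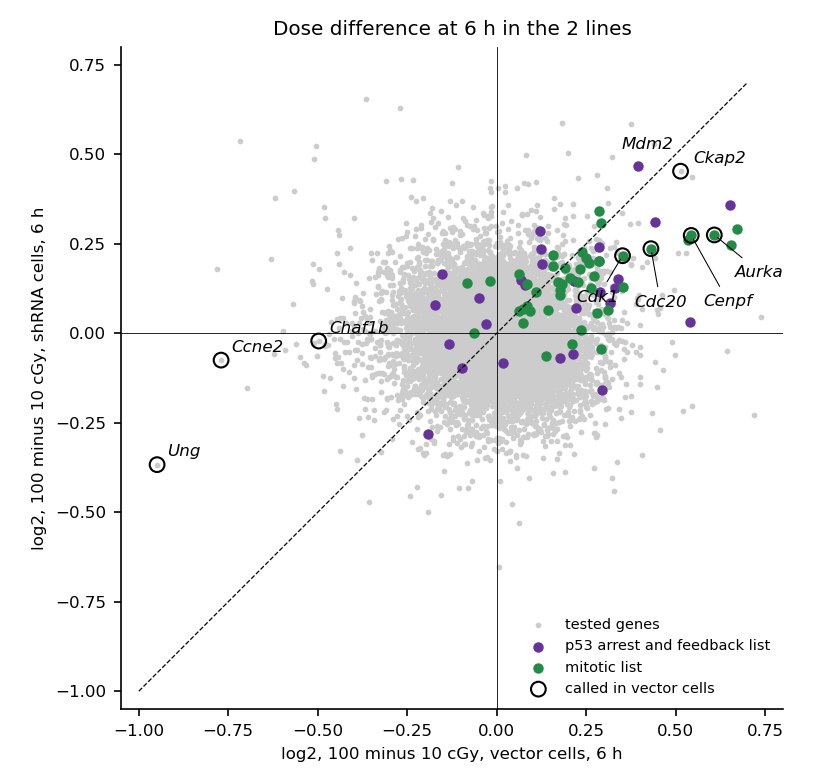
Difference between 100 and 10 cGy at 6 h (log2) in vector cells (horizontal) and shRNA cells (vertical), 1 point for each tested gene, with the dashed line marking equal values. The mitotic genes, in green, lie mostly in the upper right. The 8 genes called in vector cells, circled, were picked by their vector values and lie nearer to 0 in shRNA cells.

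DNA replication genes lay on both sides of 0. Of 49, 45 were tested, with a median of -0.00, and 22 lay above 0 (46.9% of all genes). None had an unadjusted p under 0.05 (background 3.45%). Of 43 DNA repair and damage signalling genes, 36 were tested, with a median of 0.03. Atm, the kinase that senses double-strand breaks, read 6.74, 7.19 and 6.81 against 7.14, 7.21 and 7.24. Its groups overlapped, and the difference was 0.28, or 0.19 without replicate 1. Topbp1, which activates the kinase Atr, was at 0.20.

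The oxidative phosphorylation list had the lowest median of the lists drawn with all arrays, at -0.10 over 56 tested genes, and 14 lay above 0 (46.9% of all genes). Without replicate 1 its median was -0.08, and the plasminogen system (-0.13 over 11 genes) and NF-kB (-0.09) lists lay lower. The arrays did not overlap for 14 members that were lower (background 5.15%) and 1 that was higher (background 4.17%). These members are not independent of each other. At an unadjusted p under 0.05, 2 members were lower (background 1.72%) and 1 higher (background 1.73%), and 0 of either without replicate 1. In the same line the list median was also under 0 at the other times, at -0.16 at 2 h and -0.04 at 24 h. In vector cells at 6 h the median was 0.07 and 42 of 56 lay above 0 (51.0% of all genes). 0 members were called in either line. Cox6b1, a subunit of cytochrome c oxidase, was at -0.18 and Ndufs8, a subunit of complex I, at -0.19. Another complex I subunit, Ndufs1, went the other way at 0.28. It read 8.60 on the 10 cGy array of replicate 1 and 9.11 to 9.34 on the other 5 arrays, and its difference was 0.10 without that array.

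The inflammatory and early response lists lay slightly under 0. The NF-kB list had a median of -0.06 over 31 tested genes, with the chemokine gene Ccl20 at -0.27. The immediate early list had a median of -0.05 over 44, with Fos, a subunit of the factor AP-1, at -0.31. Fos read 5.49, 5.83 and 5.73 against 5.34, 5.28 and 5.49, overlapping by 1 array. The interferon list had a median of -0.03 over 20 genes and the NRF2 antioxidant list one of -0.02 over 30, with 0 members of either at an unadjusted p under 0.05 (background 3.45%).

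Structural and metabolic lists had medians near that of all genes. Actin cytoskeleton and adhesion genes were at 0.03 over 48, with the tropomyosin gene Tpm2 at -0.27 (-0.12 without replicate 1), the capping protein gene Capzb at -0.18 (-0.08) and Actb at 0.12 (0.06). The other 2 probe sets of Capzb above the low-signal limit gave 0.03 and 0.09, and those of Tpm2 gave -0.26, -0.03 and 0.00. Collagens and matrix proteins were at 0.03 over 43. In the TGF-beta and BMP list the BMP antagonist gene Grem1 was at -0.32 and Ltbp1, which tethers latent TGF-beta, at 0.24. Fdft1, the squalene synthase gene, read 7.12 on the 10 cGy array of replicate 1 and 6.34 to 6.42 on the other 5 arrays. Its difference was -0.28 with that array and -0.03 without it, and its next brightest probe set gave 0.09. Higd1a, a hypoxia-induced mitochondrial protein, was at -0.28, and Nhp2, a snoRNA-binding protein, at -0.20. The reference genes had a median of 0.06 with all arrays and -0.07 without the 10 cGy array of replicate 1.

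**Figure D4:**
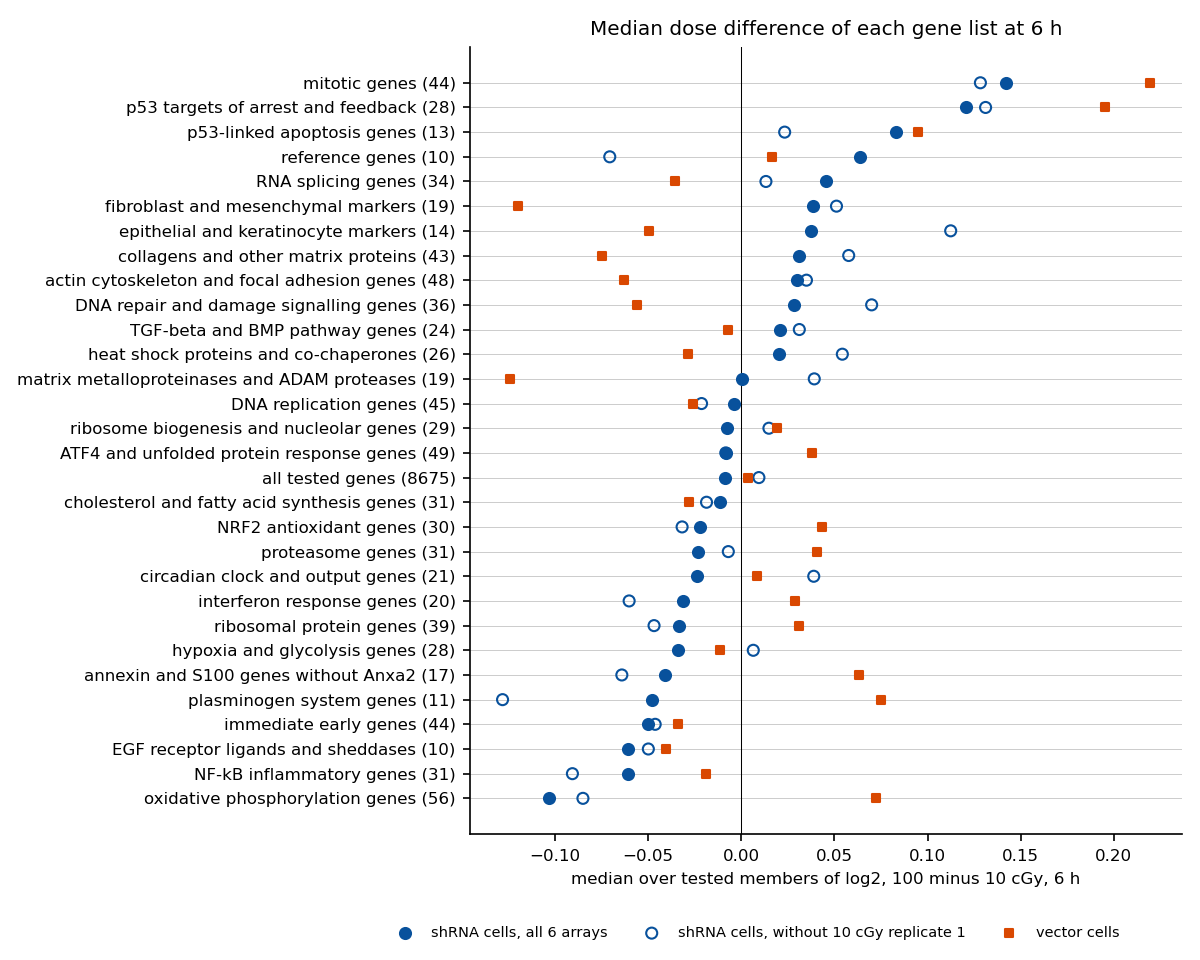
Median over tested members of the difference between 100 and 10 cGy at 6 h (log2, horizontal axis), for each list with 10 or more tested members (number in brackets). Filled circles are shRNA cells with all 6 arrays, open circles are shRNA cells without the 10 cGy array of replicate 1, and squares are vector cells. With all 6 arrays, mitotic genes lie highest at 0.14 and oxidative phosphorylation genes lowest at -0.10. Without replicate 1, the p53 arrest and feedback list lies highest and the plasminogen system list lowest, both at a size of 0.13.

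Beyond the lists, the genes with the smallest p after Ckap2 and Mdm2 had small differences. Timm17b, of the mitochondrial import machinery, read 8.53, 8.16 and 8.32 against 7.96, 8.13 and 8.04, a difference of -0.30 that became -0.20 without replicate 1. Myl4, a myosin light chain gene, read 5.18, 5.14 and 5.21 against 5.39, 5.49 and 5.52, a difference of 0.29 in both settings, but its other probe set above the low-signal limit gave -0.25. On the probe sets used, both genes had groups that did not overlap. The keratin gene Krt13 was at -0.43 (-0.40 without replicate 1), at signals of 4.04 to 4.78 that are close to the low-signal limit. Usp39, a splicing factor, read 10.55 on the 10 cGy array of replicate 1 and 9.51 to 9.84 on the other 5 arrays, with a difference of -0.43 that became -0.18 without it. Its second probe set gave 0.05 with all arrays.

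The genes called at 24 h in the same line were near 0 at 6 h. limma called 14 genes at 24 h (0.161%), all higher at 100 cGy, and 9 without the 10 cGy 24 h array of replicate 2. Among them were the acute phase gene Saa3 (1.63), the complement protease gene C1s1 (1.03) and the matrix gene Prelp (1.01). At 6 h these 14 spanned -0.19 to 0.06, and 0 had an unadjusted p under 0.05 (background 3.45%). Saa3 read 6.68, 6.49 and 6.77 at 10 cGy and 6.46, 6.59 and 6.71 at 100 cGy at 6 h, so the groups overlapped. At 24 h it was at 6.24 ± 0.08 (SD, n = 3) and 7.87 ± 0.11. C1s1 was at 7.95 ± 0.15 and 8.00 ± 0.13 at 6 h and at 7.97 ± 0.13 and 8.99 ± 0.11 at 24 h. The dose difference itself was lower at 6 h than at 24 h for 6 genes in limma (0.0692%), and for 12 genes with the replicate number as a block. Without the 100 cGy 6 h array of replicate 2, the 10 cGy 6 h array of replicate 2, the 100 cGy 24 h array of replicate 3 or the 10 cGy 24 h array of replicate 1, the count was 3. 

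**Figure D5:**
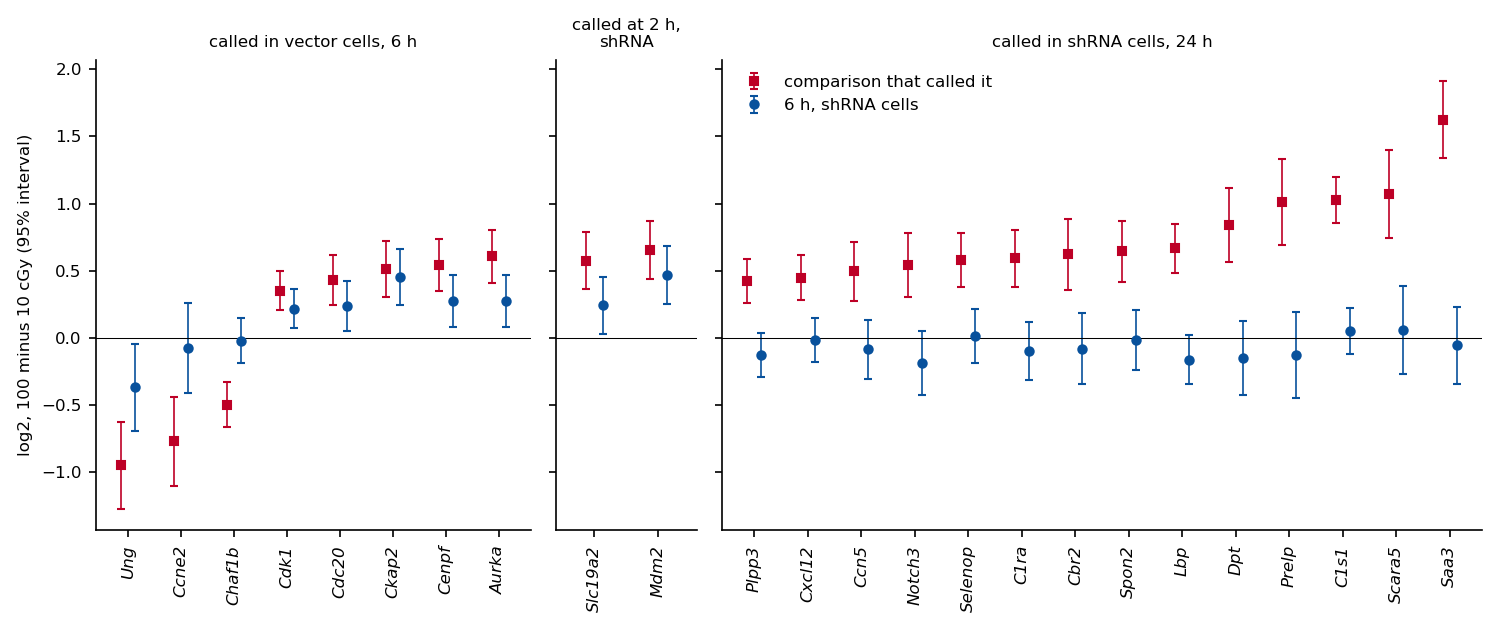
Difference between 100 and 10 cGy (log2, with 95% intervals) of each gene called in vector cells at 6 h, in shRNA cells at 2 h or in shRNA cells at 24 h. Squares are the comparison that called the gene and circles are shRNA cells at 6 h. The circles of the 14 genes called at 24 h all lie between -0.19 and 0.06, and those of the mitotic genes and Mdm2 lie above 0.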

How the data were processed

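RNA was measured on 47 Affymetrix mouse arrays from 3 µg of total RNA each. The values are the authors' deposited log2 signals, summarised by RMA per the submitters' processing notes (software version not given in the sources used here), and were used as deposited. 0 value columns were left unused, and no 2 arrays were identical. Of 22690 probe sets, 64 controls were set aside; 20380 have exactly 1 gene symbol, 691 several and 1555 none, and only the first kind was used. Of these, 20351 matched the RefSeq table of GRCm38.p6 by Entrez number, and 0 symbols needed an update. The probe set with the highest mean stood for each of 12393 genes, and the 30% of genes with the lowest mean were left out.

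limma 3.58.1 (R 4.3.3) fitted 16 group means to all 47 arrays (31 residual and 5.68 prior degrees of freedom), with two-sided Benjamini-Hochberg adjusted p under 0.05 as a call. Groups that hold fewer arrays, as when one is left out, are taken to vary like the others. The fit was tested on simulated data. Replicate numbers of the 2 doses in shRNA cells correlated at 0.36, 0.30 and -0.07 at 6 h, so they were not taken as pairs there. They correlated at 0.48, 0.48 and 0.36 at 2 h and at 0.19, 0.51 and 0.56 at 24 h, over 0.1 for each pair, so from the data they may pair the samples at those times; the labels do not say so.

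The comparison and the gene lists were chosen with earlier results of these data known. Genes were named by a rule: Anxa2, Cdkn1a, Mdm2 and Ccng1, genes called, and in each list the members with the lowest p, at most 6. Ckap2, Top2a and the cell type markers named were chosen after their values were seen. So were the genes named for a large difference, a small p, or a high or low value on 1 array. Promoter windows are from RefSeq. Alternatives changed the filter, the probe set, the arrays in the fit, the scaling, array weights, a Gapdh covariate and the replicate block, and left out arrays. With 3 arrays against 3, an exact permutation test of a single gene cannot go below 0.1, so it was not used.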

Additional observations from a re-analysis of the deposited data

Results flagged for a closer look

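In shRNA cells the difference between 100 and 10 cGy itself differed between 6 h and 24 h for 6 genes, by a test of that difference in limma with Benjamini-Hochberg adjustment. The 6 h minus 24 h value was -1.68 for the acute phase gene Saa3 (adjusted p = 3.34e-06) and -0.97 for the complement protease gene C1s1 (4.22e-06). It was -0.83 for Lbp (3.91e-04), which encodes a protein that binds bacterial lipopolysaccharide. It was -0.99 for the matrix gene Dpt (0.0176), -1.14 for Prelp (0.0178) and -0.55 for the lipid phosphatase gene Plpp3 (0.0344). At 6 h the differences of these 6 genes between the doses were -0.06, 0.05, -0.16, -0.15, -0.13 and -0.13 in the same order, none called. What the 6 genes share in these cells was not tested.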

How the results depend on the processing

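For the 6 h shRNA comparison, 17 alternatives were run. The counts of genes higher and lower stayed at 0 in each, except that 1 gene was higher (Mdm2) when only the arrays of the line were fitted, and 2 (Mdm2 and Ckap2) with array weights and with the replicate number as a block (a replicate block inside each line and time). The first array of 10 cGy had a weight of 0.173. Leaving out each array gave 0. For vector cells at 6 h (8 genes), the count was 5 with no filter on low signal, 2 with only the groups of the contrast, 4 with only the arrays of the line, 19 with array weights, 16 with the replicate block, and 3 to 4 without any 1 array. At 2 h (2 genes) it was 0, 4 and 846 with only the groups, only the line and array weights, and 0 to 2 without 1 array. At 24 h (14 genes) it was 9 with the lowest 50% of genes left out, 6 with only the groups, 80 with array weights, and 9 to 12 without 1 array. For 6 h minus 24 h (6 genes) it was 1 with only the groups, 10 with arrays centred on the median, 26 with array weights, 11 with the Gapdh covariate, 12 with the replicate block, 12 without the 4 arrays with the highest Gapdh difference (an alternative chosen after seeing the data) and 3 to 8 without 1 array. For 6 h minus 2 h it was 2 with array weights and 0 otherwise. The replicate block moved no other count by over 1.5 times.

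Of 53 named genes, 44 kept the sign of their 6 h difference in every alternative. Array weights turned Anxa2 (-0.0038), Tug1 (-0.46), Prkar2a (-0.026) and Cavin1 (0.85), and the Gapdh covariate turned Anxa2 (-0.039) and Cavin1 (0.26). Without the 4 arrays, Tug1 was -0.64, Prkar2a -0.13, Cavin1 0.98, C1s1 -0.022 and Dpt 0.064. Without any 1 array, Anxa2 spanned -0.043 to 0.039, Tug1 -0.64 to 1.39, Prkar2a -0.13 to 1.03, Cavin1 -1.11 to 0.98, Saa3 -0.134 to 0.0077, C1s1 -0.022 to 0.124, Dpt -0.37 to 0.064, Ccne2 -0.25 to 0.063 and Chaf1b -0.067 to 0.042. The line difference of Ckap2 spanned -0.143 to 0.00092. The causes were not tested. With 3 arrays a group, the smallest difference that could be called depended on each gene's standard error.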
